A study of Mus musculus with 76 samples.

Results

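The adipogenic transcription factors are 10 genes whose products act in sequence to turn precursor cells into adipocytes: the nuclear receptors Pparg, Rxra and Nr1h3, the C/EBP genes Cebpa, Cebpb and Cebpd, the EBF genes Ebf1 and Ebf2, the zinc finger gene Klf15 and the signal-dependent factor Stat5a. They were taken by symbol from the 2 deposited tables. The table of white adipose tissue (WAT) held 10 of them among 18964 entries, and the liver table held 9 of them among 16775 entries, with Ebf2 not listed.

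Visceral WAT and liver came from female C57BL/6 mice with free access to food and water. Fnip2C/C mice carried, on both copies of Fnip2, a T-to-C change in the 3′ untranslated region made by CRISPR/Cas9 editing, together with 1 further base change that removes the PAM, and Fnip2T/T mice carried the T allele on both copies. Their age is not given in the sources used here. There were 4 Fnip2C/C and 5 Fnip2T/T WAT libraries and 5 livers of each genotype, and 6 mice gave both tissues. Fnip2 encodes a partner of folliculin in nutrient sensing by mTORC1, and the comparison asks how the edited allele changes expression in each tissue.

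The factors work as a cascade. C/EBPβ and C/EBPδ, the products of Cebpb and Cebpd, rise early after hormonal induction, and glucocorticoids are among the signals that raise Cebpd and Klf15. PPARγ (Pparg) and C/EBPα (Cebpa) then maintain each other and the mature adipocyte program, and PPARγ binds DNA as a heterodimer with RXRα (Rxra). In liver, C/EBPα, RXRα, LXRα (Nr1h3) and KLF15 serve hepatocyte metabolism, whereas PPARγ and EBF1 are mainly known from adipose and other mesenchymal or lymphoid cells.

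RefSeq promoters (GRCm38.p6, 250 bases before to 50 after each start) were available for 8 of the 10 factors, as 14 promoters. There was none for Cebpd or Ebf2, which were therefore not searched. Among these 14 promoters only that of Klf15 held CACGTG, the palindromic E-box, which occurs in 7.15% of all 32851 promoters. A share of 1 in 14 is close to that of all promoters. The Klf15 promoter held 3 copies, and 0.0883% of all promoters held at least 3. Any link to its expression was not tested. The 2 copies that lie wholly before the start are shown because Klf15 is the 1 factor of the 8 searched with any match, with the motif in capitals, on the plus strand:

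Klf15, motif 228 bases before the start, chr6:90462336-90462365: ctcccgaggtccCACGTGgtctgcacttcg

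Klf15, motif 172 bases before the start, chr6:90462392-90462421: tagaacccgtctCACGTGcgcatcggagga

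The other copy spans the start itself. The search covered both strands, and none of the 14 promoters held TGACGTCA (1.79% of all promoters), TTGCGCAA (0.183%) or TTCNNNGAA (8.3%). A match is only a match of letters, and nothing about binding was measured.

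The labels fitted the tissue markers. All 9 adipocyte markers were listed in WAT, where they summed to 124032 to 471081 normalized counts. In liver Adipoq, Plin1 and Lep were not listed, while the other 6 were, and these summed to 25292 to 68371. The 7 hepatocyte markers summed to 621289 to 826866 normalized counts in liver. In WAT they summed to 203 to 2888, with Serpina1c, Fgb and Cps1 not listed. The reads recovered from the tables ranged from 4180209 to 6277644 per WAT library and from 5583041 to 7523200 per liver library. The WAT library of the Fnip2C/C mouse 593 stood apart: its ovary markers (9 of 12 listed, without Amh, Zp3 and Ooep) summed to 21165 normalized counts, against 121 to 142 in the other Fnip2C/C libraries and 51 to 111 in Fnip2T/T, and its adipocyte markers had the lowest sum, 124032. Values without this library are therefore given beside many of the calls, counts and fold changes that it moves. A WAT value given alone includes this library and may also move without it. Fnip2 itself had 22.8 ± 6.99 (SD, n = 4) normalized counts in Fnip2C/C WAT and 28.3 ± 10.6 (SD, n = 5) in Fnip2T/T WAT, with 155 ± 29.2 (SD, n = 5) and 104 ± 33.2 (SD, n = 5) in liver. These counts do not read the edited base and so do not check the genotype labels.

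In WAT, 3 of the 10 factors fell in Fnip2C/C mice (Cebpd, Klf15 and Cebpb) and 1 rose (Ebf2) at a limma adjusted p under 0.05, and the other 6 did not pass. Over all 12798 genes tested, 32.1% passed, 15.1% as higher and 17% as lower in Fnip2C/C, so that 4 of 10 is close to the share among all genes. Without mouse 593 there were again 4, but 2 were lower (Cebpd and Klf15) and 2 higher (Ebf2 and Pparg). The median log2 fold change of the factors was -0.47, against 0.02 over all genes tested, and -0.24 against -0.01 without mouse 593. What follows is therefore a description of which factors moved. Fold changes are given as Fnip2C/C minus Fnip2T/T on the scale of log2(normalized count + 1). The added 1 shrinks the log2 change of low genes, while a single low library can enlarge it.

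**Figure D1:**
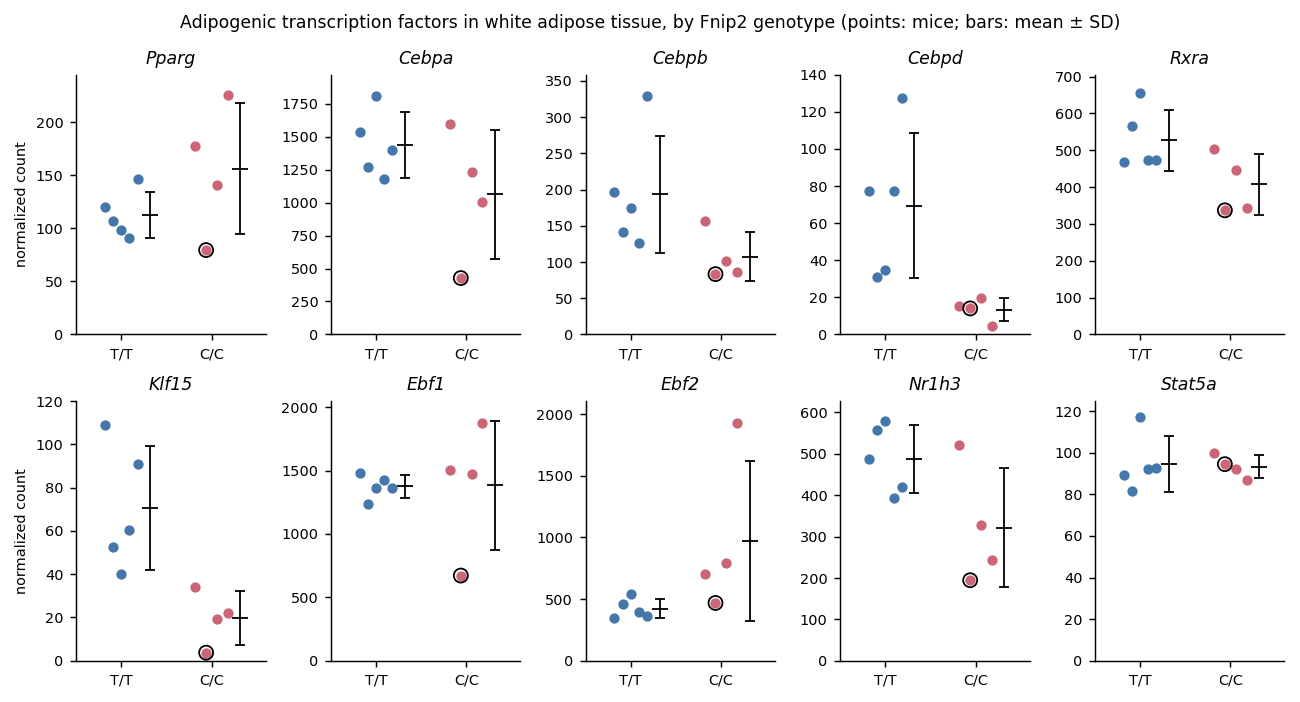
Normalized counts of the 10 factors in WAT (y axis, linear from 0), by genotype (x axis), with 1 point per mouse and the mean ± SD beside each group; the ringed point is mouse 593. Cebpd and Klf15 are the factors whose groups do not overlap, and mouse 593 is the lowest Fnip2C/C library for 8 of the 10 factors, including Klf15, Cebpa and Ebf1.

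The early C/EBP factors were lower. Cebpd had 15.3, 14.0, 19.5 and 4.69 normalized counts in the Fnip2C/C libraries (mice 590, 593, 599 and 638) and 77.1, 31.1, 34.6, 77.3 and 127 in the Fnip2T/T libraries (mice 607, 608, 609, 657 and 658). Every Fnip2C/C library lay below every Fnip2T/T library, and the groups did not overlap, in either direction, for 26.1% of all genes tested. Its log2 fold change was -2.25 (SE 0.46, 95% interval -3.25 to -1.25), which is 4.75-fold lower, with a limma adjusted p of 0.00383. The exact two-sided permutation test gave p = 0.0159, the smallest that 126 groupings allow. The counts are low, with 4 to 18 reads per Fnip2C/C library and 31 to 168 per Fnip2T/T library, yet Cebpd passed in all 9 fits that left out 1 library, with log2 fold changes between -2.48 and -1.85.

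Cebpb, which is induced together with Cebpd in differentiating precursors, had 156, 83.3, 102 and 86.7 normalized counts in Fnip2C/C and 197, 141, 174, 127 and 329 in Fnip2T/T. The groups overlapped through the Fnip2C/C mouse 590 and the Fnip2T/T mice 608 and 657. Its log2 fold change of -0.81 (SE 0.28, 95% interval -1.41 to -0.21) passed narrowly, with a limma adjusted p of 0.0412 and an exact permutation p of 0.0476. With 1 library left out at a time, Cebpb missed the threshold in 6 of 9 fits, namely without the Fnip2C/C mice 593 (adjusted p = 0.0931), 599 (0.083) or 638 (0.102) and without the Fnip2T/T mice 607 (0.0805), 609 (0.0538) or 658 (0.089), and the log2 fold change then lay between -0.83 and -0.60.

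Cebpa, which keeps the mature adipocyte program on, did not pass. It had 1595, 428, 1231 and 1004.97 normalized counts in Fnip2C/C and 1532, 1267, 1808, 1181 and 1396 in Fnip2T/T. Mouse 593 was far below the rest, and the other Fnip2C/C libraries overlapped the range of Fnip2T/T. The log2 fold change was -0.57 (95% interval -1.25 to 0.11, limma adjusted p = 0.183), and it was -0.18 without mouse 593 (adjusted p = 0.552).

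Klf15, a Krüppel-like factor that promotes adipocyte differentiation and amino acid breakdown, had 34.1, 3.74, 19.5 and 22.3 normalized counts in Fnip2C/C and 109, 52.5, 40.2, 60.5 and 90.9 in Fnip2T/T. Like Cebpd, it showed no overlap between the genotypes. It was 4.00-fold lower in Fnip2C/C, a log2 fold change of -2.002 (SE 0.51, 95% interval -3.10 to -0.90, limma adjusted p = 0.0109, exact permutation p = 0.0159). The call was kept in all 9 fits that left out 1 library. Mouse 593 had the lowest value, 4 reads, and without it the log2 fold change was -1.39, with an adjusted p of 0.011. With all libraries, the count-based tools edgeR and DESeq2 gave log2 fold changes of -1.88 and -1.85.

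The EBF genes differed from each other. Ebf2, which marks committed precursors and the brown and beige adipocyte lineage, had 702, 469, 790 and 1928 normalized counts in Fnip2C/C and 345, 462, 540, 399 and 367 in Fnip2T/T. Mice 590, 599 and 638 lay above the whole range of Fnip2T/T, mouse 638 far above the others, and mouse 593 lay within it. The log2 fold change was 1.01 (SE 0.33, 95% interval 0.31 to 1.72), or 2.02-fold higher, with a limma adjusted p of 0.0317 and an exact permutation p of 0.0317. Without mouse 638 it was 0.61 (adjusted p = 0.0598). The call was also lost without the Fnip2C/C mouse 599 (0.0583) or the Fnip2T/T mice 607 (0.069), 657 (0.0648) or 658 (0.0641), and without mouse 593 it was kept, at 1.29.

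Ebf1, which acts upstream of Pparg and Cebpa in precursors, had 1507, 672, 1475 and 1879 normalized counts in Fnip2C/C and 1480, 1236, 1363, 1429 and 1365 in Fnip2T/T. Apart from mouse 593, the libraries of both genotypes lay close together. The log2 fold change was -0.08 (95% interval -0.64 to 0.48, limma adjusted p = 0.825), and without mouse 593 it was 0.23 (adjusted p = 0.347), so its direction rests on that library.

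None of the 3 nuclear receptors passed in WAT. Pparg had 178, 79.5, 141 and 226 normalized counts in Fnip2C/C and 121, 107, 98.2, 91.2 and 146 in Fnip2T/T. Mice 590 and 638 lay above the range of Fnip2T/T, mouse 599 within it and mouse 593 below it. The log2 fold change was 0.39 (SE 0.27, 95% interval -0.20 to 0.98, limma adjusted p = 0.292, exact permutation p = 0.254). Without mouse 593 it was 0.68 with an adjusted p of 0.0371, the 1 fit of 9 in which Pparg passed.

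Rxra, the heterodimer partner, had 503, 337, 445 and 342 normalized counts in Fnip2C/C and 468, 566, 655, 474 and 473 in Fnip2T/T, with 3 Fnip2C/C libraries below the lowest Fnip2T/T library. Its log2 fold change was -0.38 (95% interval -0.78 to 0.02, limma adjusted p = 0.132), and -0.30 without mouse 593. Nr1h3, which encodes the oxysterol receptor LXRα, had 522, 195, 327 and 244 normalized counts in Fnip2C/C and 487, 557, 578, 393 and 419 in Fnip2T/T. Again 3 of the Fnip2C/C libraries lay below the range of Fnip2T/T, and mouse 590 lay within it. The log2 fold change was -0.68 (95% interval -1.23 to -0.12) with a limma adjusted p of 0.059. It ranged from -0.47 without mouse 593 (adjusted p = 0.159) to -0.95 without mouse 590 (adjusted p = 0.00681), and was -0.58 without mouse 638 (0.146).

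Stat5a, which carries signals of growth hormone and prolactin to the nucleus, was the factor nearest to no difference. It had 100, 94.5, 92.1 and 86.7 normalized counts in Fnip2C/C and 89.4, 81.7, 117, 92.2 and 92.5 in Fnip2T/T. The log2 fold change was -0.01 with a 95% interval of -0.39 to 0.37 (limma adjusted p = 0.969), and the Fnip2C/C libraries varied little, with a CV of 5.91%.

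**Figure D2:**
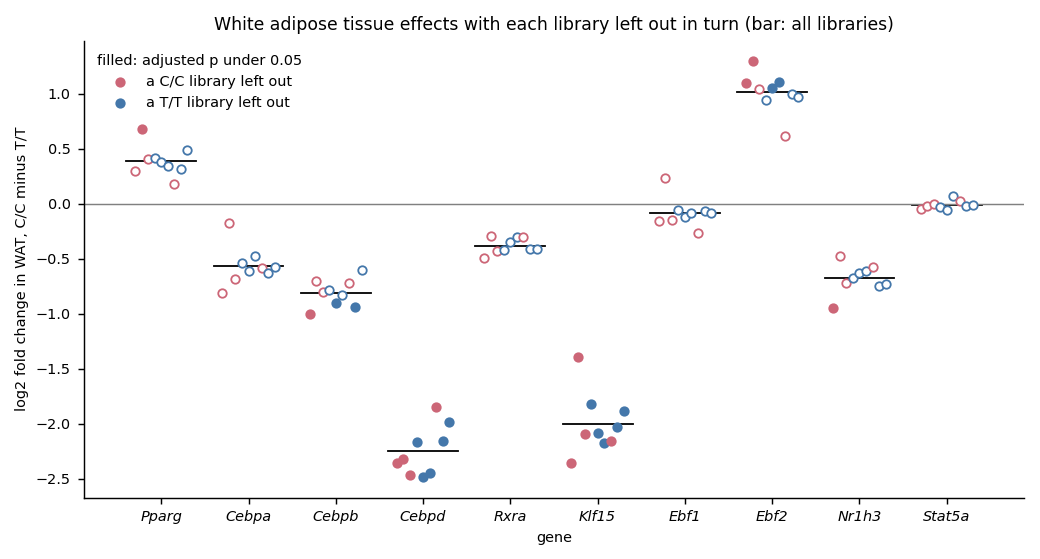
Log2 fold change of each factor in WAT (y axis, Fnip2C/C minus Fnip2T/T) when each of the 9 libraries was left out in turn (points; filled where the limma adjusted p was under 0.05), with the value from all libraries as a bar. Cebpd and Klf15 are filled throughout, while Cebpb is filled in 3 fits, Ebf2 in 4, and Pparg and Nr1h3 in 1 each.

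In liver, none of the 9 factors listed there passed, and no gene did: 0% of the 11710 genes tested passed at a limma adjusted p under 0.05 in either direction, with 231 genes at an unadjusted p under 0.05, and edgeR's quasi-likelihood test and DESeq2 on the recovered reads also called 0. The genotypes overlapped for all 9 factors, and 0.248% of the genes tested in liver did not overlap. The median log2 fold change of the factors was 0.19, against 0.01 over all genes tested, with 4 of the 9 below 0.

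The 3 factors that fell in WAT had positive values in liver. Cebpd had 28.9, 33.5, 42.8, 39.3 and 44.4 normalized counts in Fnip2C/C (mice 590, 591, 592, 638 and 639) and 14.2, 30.6, 35.4, 28.5 and 49.2 in Fnip2T/T (mice 607, 608, 657, 658 and 659). The Fnip2C/C livers lay within the range of the Fnip2T/T livers, with a log2 fold change of 0.34 (95% interval -0.22 to 0.89). Klf15, which drives amino acid use in fasted liver, had 298, 422, 140, 330 and 336 normalized counts in Fnip2C/C and 272, 201, 182, 324 and 317 in Fnip2T/T, a log2 fold change of 0.19 (95% interval -0.41 to 0.79). Its lowest and highest values both came from Fnip2C/C livers. Cebpb had 106, 264, 170.5, 146 and 342 normalized counts in Fnip2C/C and 204, 103, 161, 119 and 144 in Fnip2T/T, a log2 fold change of 0.41 (95% interval -0.25 to 1.06). Mice 591 and 639 were the livers above all others.

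The narrowest intervals in liver were those of Nr1h3, Rxra and Cebpa. Nr1h3 ranged from 827 to 1040 normalized counts in Fnip2C/C livers and from 890 to 1051 in Fnip2T/T livers, with a log2 fold change of -0.07 (95% interval -0.30 to 0.16). For Rxra the ranges were 1174 to 1367 and 1081 to 1680, with a log2 fold change of -0.01 (95% interval -0.27 to 0.26). Cebpa ranged from 871 to 1166 and from 869 to 1518, with a log2 fold change of -0.04 (95% interval -0.35 to 0.27).

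Stat5a had 35.3 to 86.6 normalized counts in Fnip2C/C livers and 51.9 to 71.4 in Fnip2T/T livers, a log2 fold change of -0.08 (95% interval -0.53 to 0.36). Pparg and Ebf1 were near the lower limit of what was counted in liver. Pparg had 9 to 30 reads per Fnip2C/C liver and 3 to 24 per Fnip2T/T liver, with a log2 fold change of 0.23 and a 95% interval of -0.62 to 1.09. Ebf1 had 7 to 25 and 2 to 25 reads, with a log2 fold change of 0.34 and a 95% interval of -0.58 to 1.27, so that a rise of 2-fold lay within the interval of both genes. In both genes the lowest liver was the Fnip2T/T mouse 657.

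**Figure D3:**
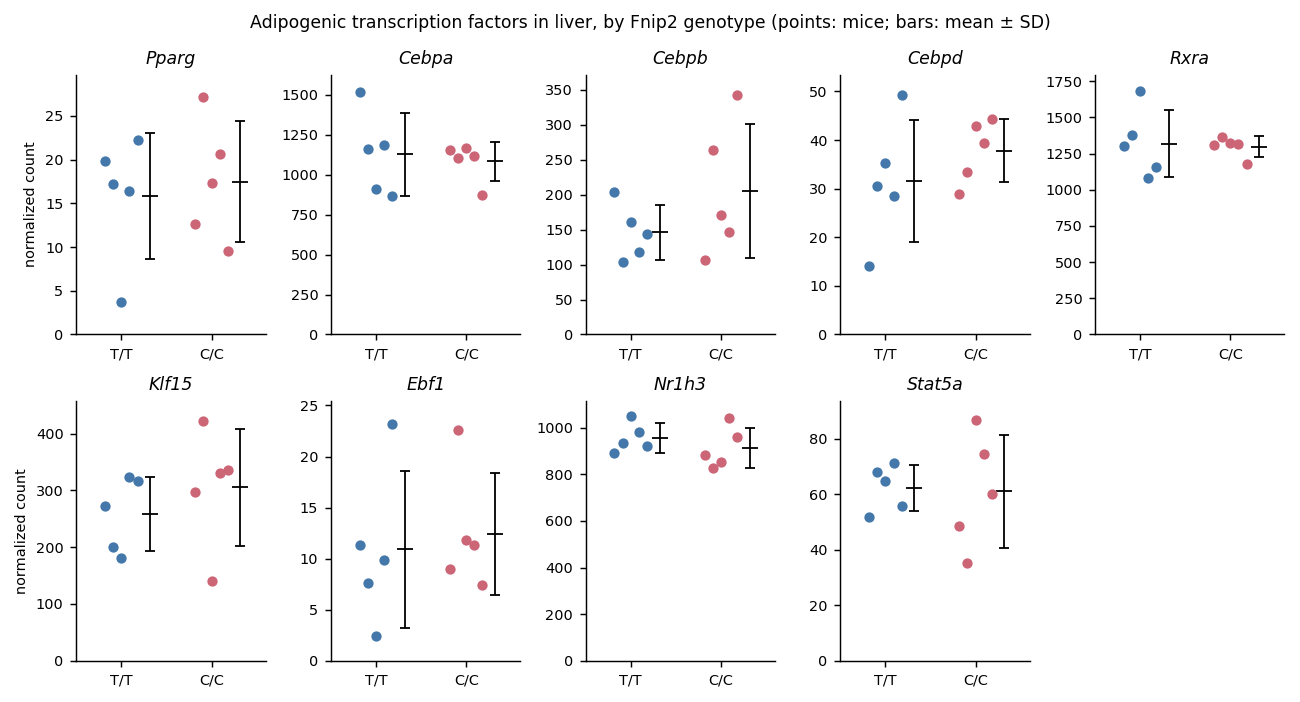
Normalized counts of the 9 factors listed in liver (y axis, linear from 0), by genotype (x axis), with 1 point per mouse and the mean ± SD beside each group. The genotypes overlap in every panel.

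The difference between the tissues was tested directly, as the genotype effect in WAT minus that in liver, over the 10403 genes kept in both tables. It passed for 3 of the 9 factors, all negative, against 29.1% of all genes (11.5% positive and 17.7% negative). For Cebpd the difference was -2.58 (SE 0.56, 95% interval -3.74 to -1.43, limma adjusted p = 0.00195). For Klf15 it was -2.19 (SE 0.62, 95% interval -3.48 to -0.90, adjusted p = 0.0129; -1.58 without mouse 593), and for Cebpb -1.22 (SE 0.43, 95% interval -2.11 to -0.33, adjusted p = 0.0369). Cebpd and Klf15 passed in all 13 fits that left out 1 mouse from both tissues. Cebpb passed in 5 of them, losing the call without the Fnip2C/C mice 591 (0.0662), 593 (0.0717), 599 (0.0553), 638 (0.0745) or 639 (0.0675) and without the Fnip2T/T mice 608 (0.053), 658 (0.106) or 659 (0.0524).

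For Nr1h3 the difference was -0.61 (adjusted p = 0.0997), with -0.89 without mouse 590 (adjusted p = 0.00822), -0.46 without mouse 638 (0.275) and -0.40 without mouse 593 (0.236). For Cebpa it was -0.53 (adjusted p = 0.275), for Rxra -0.37 (0.202) and for Ebf1 -0.43 (0.596), and without mouse 593 these were -0.14, -0.29 and -0.11. The values of Pparg and Stat5a were 0.16 (95% interval -0.96 to 1.27) and 0.07 (95% interval -0.52 to 0.66), and without mouse 593 that of Pparg was 0.445 (adjusted p = 0.555). The WAT and liver tables were normalized separately, which the tissue term of this fit takes up.

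**Figure D4:**
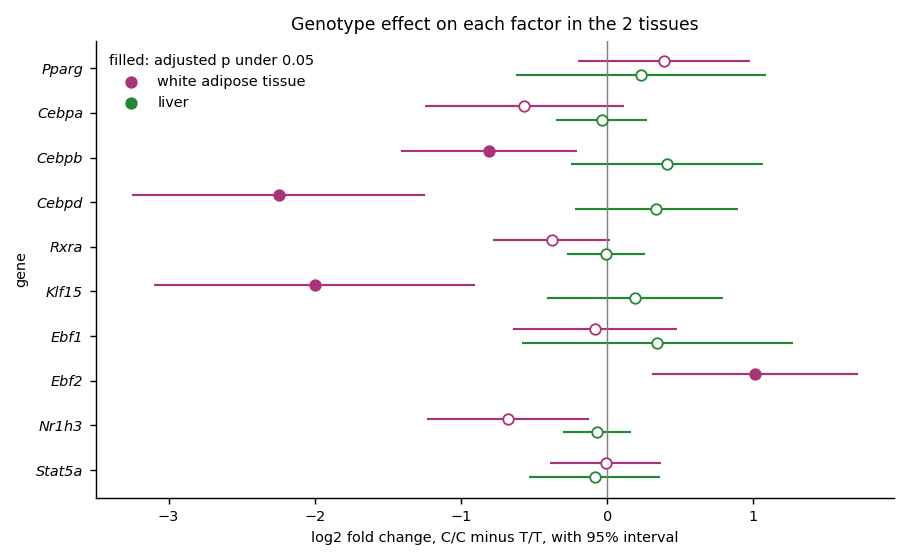
Log2 fold change of each factor (x axis, Fnip2C/C minus Fnip2T/T, with its 95% interval) in WAT and liver, filled where the limma adjusted p was under 0.05. Cebpd, Klf15 and Cebpb lie left of 0 in WAT and right of 0 in liver, Ebf2 lies right of 0 in WAT and is not listed in liver, and every liver interval includes 0.

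The level of each factor in the tissues is set side by side as CPM (recovered reads of the gene per 1000000 recovered reads of the library), with no test, since tissue and table cannot be told apart. Ebf1 had the widest gap between the tissues of Fnip2T/T mice, with 305 ± 38.5 (SD, n = 5) in WAT and 1.64 ± 1.21 (SD, n = 5) in liver. Pparg had 24.9 ± 4.79 in WAT and 2.37 ± 1.10 in liver. Both factors were higher in every WAT library than in every liver. Ebf2 had 93.0 ± 13.4 in Fnip2T/T WAT and 201 ± 130 (SD, n = 4) in Fnip2C/C WAT.

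Cebpa had 317 ± 50.1 CPM in Fnip2T/T WAT and 167 ± 33.4 in Fnip2T/T liver. The values of Stat5a were 20.9 ± 2.39 and 9.28 ± 1.32, and those of Cebpb were 42.6 ± 16.5 and 21.6 ± 5.16. Rxra and Nr1h3 had higher means in liver, at 116 ± 13.3 against 196 ± 34.2 for Rxra and 108 ± 16.3 against 142 ± 10.5 for Nr1h3. All of these are SDs over 5 Fnip2T/T mice.

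For the factors that fell most in WAT, the 4 groups took different orders. Klf15 was highest in liver, with 45.0 ± 15.4 CPM in Fnip2C/C and 38.5 ± 9.96 in Fnip2T/T, followed by 15.9 ± 7.15 in Fnip2T/T WAT and 4.05 ± 2.42 (SD, n = 4) in Fnip2C/C WAT. The 2 liver groups overlapped, and Fnip2T/T WAT, at 8.25 to 26.5, reached into the range of Fnip2C/C liver (21.3 to 64.4) but not that of Fnip2T/T liver (26.7 to 49.4). Cebpd was highest in Fnip2T/T WAT, at 15.5 ± 8.52, followed by 5.56 ± 0.83 in Fnip2C/C liver, 4.75 ± 2.05 in Fnip2T/T liver and 2.82 ± 1.32 (SD, n = 4) in Fnip2C/C WAT. The neighbouring groups of Cebpd in this order overlapped, apart from Fnip2T/T WAT (6.77 to 26.8) against Fnip2C/C liver (4.41 to 6.50).

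Further lists held 125 other genes written down as activators or repressors of adipogenesis, or as targets of these factors or of the glucocorticoid receptor. In WAT, 110 of them were tested and 37 passed, 7 as higher and 30 as lower in Fnip2C/C. Over all genes tested in WAT 32.1% passed, close to 37 of 110, with 15.1% higher and 17% lower. Of the list genes, 10 passed as higher and 25 as lower without mouse 593. In liver, 101 were tested and 0 passed, with list medians between -0.11 and 0.04. Among 23 other adipogenic activators tested in WAT, 2 rose, 1 fell and 20 did not pass, with a median log2 fold change of 0.18, and without mouse 593 3 rose and 0 fell. Stat5b, the close relative of Stat5a, rose from 168 ± 32.3 (SD, n = 5) normalized counts in Fnip2T/T to 381 ± 103 (SD, n = 4) in Fnip2C/C, a log2 fold change of 1.16 (SE 0.22, limma adjusted p = 0.00249). Med1, a Mediator subunit that binds PPARγ, rose by 0.55 (adjusted p = 0.0144), and Klf9, a glucocorticoid-induced Krüppel-like factor, fell by 0.96 on the log2 scale (adjusted p = 0.0411), a call lost without mouse 593.

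Among 23 adipogenic repressors tested in WAT, 3 rose, 6 fell and 14 did not pass, with a median of -0.31, and without mouse 593 2 rose and 7 fell. Klf2, which represses Pparg in precursors, fell from 503 ± 150 (SD, n = 5) normalized counts in Fnip2T/T to 114 ± 78.3 (SD, n = 4) in Fnip2C/C, which is 5.22-fold lower (limma adjusted p = 0.00253). Klf7 fell 2.34-fold (adjusted p = 0.00218). Ddit3, which encodes the stress-induced C/EBP inhibitor CHOP, rose from 297 ± 155 to 923 ± 348, a log2 fold change of 1.70 (SE 0.36, adjusted p = 0.00443).

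The PPARγ targets that passed with all libraries were lower in Fnip2C/C. Of 29 tested in WAT, 11 fell, 0 rose and 18 did not pass, with a median of -0.57, while Pparg had a value of 0.39. Without mouse 593, 7 fell and 3 rose, with a median of -0.32. Pnpla2, the triglyceride lipase ATGL, fell from 5772 ± 872 (SD, n = 5) to 1777 ± 829 (SD, n = 4) normalized counts (log2 fold change -1.82, SE 0.30, limma adjusted p = 0.00137). Plin1, which coats the lipid droplet, fell from 3679 ± 540 to 1315 ± 619 (-1.65, adjusted p = 0.00385). G0s2, an inhibitor of ATGL, ranged from 30.1 to 701 in Fnip2T/T and from 2.81 to 10.8 in Fnip2C/C (-4.29, SE 0.82, adjusted p = 0.00375).

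The C/EBP targets held 10 genes tested in WAT, of which 4 fell, 1 rose (Saa3, 1.78) and 5 did not pass, with a median of -0.26, and without mouse 593 4 fell and 2 rose, with a median of 0.11. Hsd11b1, which regenerates active glucocorticoid, was 3.18-fold lower in Fnip2C/C (limma adjusted p = 0.00252). Lep, the adipokine leptin, was 3.67-fold lower (adjusted p = 0.00769). Alb, with 61.1 ± 40.8 (SD, n = 4) and 174 ± 49.6 (SD, n = 5) normalized counts, was 3.21-fold lower (adjusted p = 0.00511), and it is also a hepatocyte marker.

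Of 12 LXR targets tested in WAT, 3 fell, 1 rose (Abca1, 0.61, a call lost without mouse 593) and 8 did not pass, with a median of -0.44, and without mouse 593 2 fell and 1 rose. Rnf145, a ubiquitin ligase induced by LXR, fell from 123 ± 31.2 (SD, n = 5) to 22.02 ± 11.1 (SD, n = 4) normalized counts, a log2 fold change of -2.55 (SE 0.36, limma adjusted p = 0.000791). Pltp, which transfers phospholipids between lipoproteins, fell by 0.69 on the log2 scale (adjusted p = 0.0162). Lpl, lipoprotein lipase, which also stands among the PPARγ targets, fell by 1.07 (adjusted p = 0.0332), a call lost without mouse 593. Of 6 STAT5 targets tested, 2 fell and 0 rose, with a median of -0.68. These were Cish, a STAT5-induced inhibitor of cytokine signalling (log2 fold change -1.43, adjusted p = 0.0273), and Igf1 (-0.71, adjusted p = 0.0395), while Pim1 had a value of -0.97 (adjusted p = 0.0526). Without mouse 593, 0 of the 6 passed, with a median of -0.53.

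The glucocorticoid targets that passed were all lower in Fnip2C/C. Whether glucocorticoid action differed between the genotypes, or bears on the factors, was not tested. Of 13 tested in WAT, 6 fell, 0 rose and 7 did not pass, with a median of -0.51, and without mouse 593 5 fell and 0 rose, with a median of -0.77. Tsc22d3, which encodes GILZ, had 71.0 ± 6.62 (SD, n = 4) normalized counts in Fnip2C/C and 226 ± 68.2 (SD, n = 5) in Fnip2T/T, 3.05-fold lower (limma adjusted p = 0.000751). Per1, a clock gene with glucocorticoid response elements, was 4.199-fold lower (adjusted p = 0.00107), and Dusp1, a phosphatase of MAP kinases, 3.54-fold lower (adjusted p = 0.0111). The other genes that fell were Ddit4 (-1.98), Angptl4 (-1.25) and Klf9, the last pair of them not called without mouse 593, of which Angptl4 is also listed as a PPARγ target and Klf9 as an activator. Over the 14 of them tested in liver, the median was 0.02. Every list was compared with 32.1% of all genes passing in WAT and a median of 0.02, and no list was tested as a set.

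**Figure D5:**
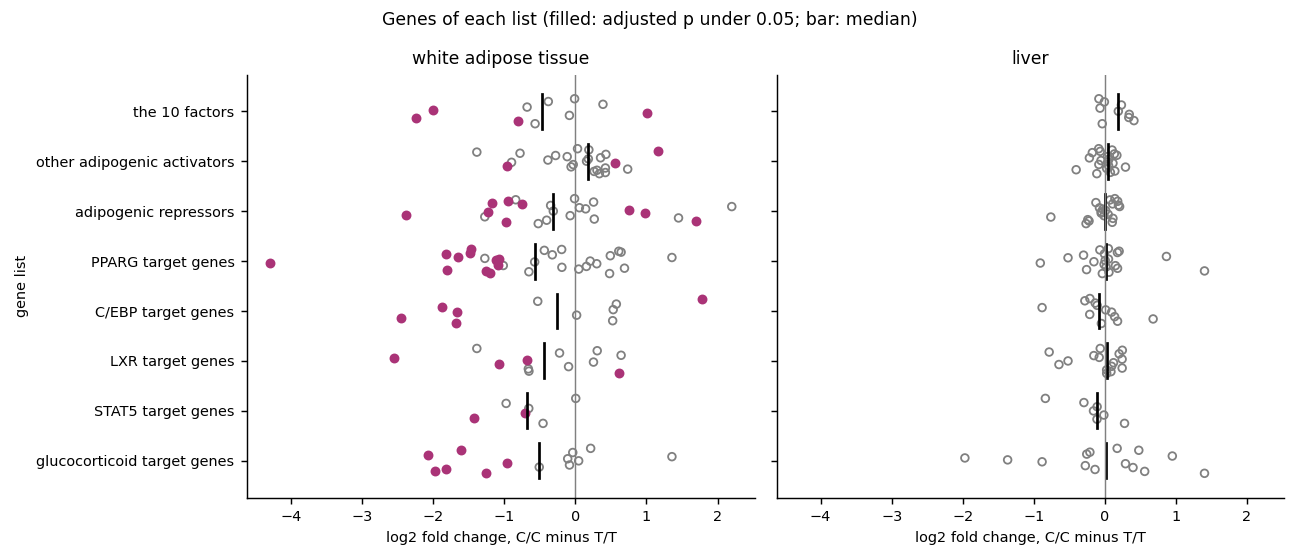
Log2 fold change (x axis, Fnip2C/C minus Fnip2T/T) of each gene in the 10 factors and the 7 other lists (y axis) in WAT and liver, filled where the limma adjusted p was under 0.05, with the median of each list as a bar. The filled points of the PPARγ, STAT5 and glucocorticoid target lists all lie left of 0 in WAT, where mouse 593 is included, and no point is filled in liver.

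Markers of some cell types moved with the genotype in the same WAT libraries. Among all genes tested in WAT, taken singly, 32.1% passed and 26.1% showed no overlap between the genotypes. Of the 9 adipocyte markers, 5 fell (3 without mouse 593) and 0 rose. The 5 were Adipoq, Plin1, Lipe, Fabp4 and Lep, which are also counted above as PPARγ or C/EBP targets, so they are no separate observation. The sum of the 9 ranged from 124032 to 342909 normalized counts in Fnip2C/C and from 260189 to 471081 in Fnip2T/T. The 6 endothelial markers summed to 1329 to 2523 in Fnip2C/C and to 2579 to 3890 in Fnip2T/T, without overlap, and 3 of them fell. Of the 9 stromal or progenitor markers, 3 rose and 1 fell, with sums of 10256 to 19014 and 11454 to 14178. Mouse 638, the highest for Ebf2, also had the highest stromal sum. Their part in the results for the factors was not tested, and in bulk tissue fewer cells of a type and less RNA per cell cannot be told apart.

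The hepatocyte markers summed to 203 to 655 in Fnip2C/C WAT and 828 to 2888 in Fnip2T/T WAT, also without overlap. The 9 macrophage markers summed to 3073 to 6238 in Fnip2C/C and 2965 to 4798 in Fnip2T/T, while 1 rose and 3 fell, also without mouse 593. The 5 smooth muscle markers summed to 3875 to 9915 and 2650 to 10532, while 1 rose and 2 fell (0 and 2 without mouse 593). The 7 mesothelial markers summed to 462 to 1306 and 300 to 971, and 0 of the 6 tested passed. Lymphocyte markers stayed at 36 to 82 and the pancreatic ones at 107 to 235 over all WAT libraries. Cholangiocyte markers summed to 90 to 743 in WAT, and Kupffer cell markers to 7 to 24 there against 903 to 1361 in liver. Hepatic stellate markers had 75 to 163 in Fnip2C/C WAT and 136 to 242 in Fnip2T/T WAT, with 354 to 491 in liver. Mitochondrial transcripts took 10.6% to 18.8% of the reads in Fnip2C/C WAT and 13.3% to 18.9% in Fnip2T/T WAT.

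The genes whose variation was most like that of Pparg were found from the deviations of log2 values from the genotype means over the 9 WAT libraries, among 8094 other genes with a mean of at least 50 normalized counts. They were Gne (Pearson r = 0.985, Spearman rho = 0.917), which encodes an enzyme of sialic acid synthesis, Ppargc1b (r = 0.967, rho = 0.933), a coactivator of nuclear receptors, and Map3k6 (r = 0.954, rho = 0.933), a stress-activated kinase. These values describe 9 points that share the library and its scaling, mouse 593 included. None of the 3 genes passed in WAT: Ppargc1b had a log2 fold change of 0.90 (SE 0.43, limma adjusted p = 0.125), Gne of 0.44 (adjusted p = 0.134) and Map3k6 of -0.45 (adjusted p = 0.347).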

How the data were processed

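Female mouse visceral WAT and liver were sequenced by the authors with QuantSeq 3′ FWD libraries from 500 ng (WAT) or 250 ng (liver) of RNA, a stranded kit that reads transcript 3′ ends. The 76 label entries are 4 sequencing runs of 19 mouse and tissue libraries, and the deposited tables hold 1 column per library, which was mapped through the RNA number and genotype in its label. Of the WAT columns, 1 matched no label and was not used. The signal values that the authors deposited are read counts divided by 1 size factor per library, each tissue normalized on its own. The submitters' processing notes name GRCm39, FastQC 0.11.9, HISAT2, SAMtools 1.12, HTSeq and DESeq2, without their roles. Whole reads could be recovered for 100% of the values (tolerance 0.01), and counts cover reads, not molecules, since no molecular identifiers are mentioned. Repeated gene names (7 in WAT and 2 in liver) were left out of the fit over both tissues.

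Genes with a mean of at least 10 normalized counts in a tissue were tested on log2(value + 1) with limma 3.58.1 (trend and robust) in R 4.3.3, with Benjamini-Hochberg adjustment over all genes and a threshold of 0.05. Each tissue was fitted alone, and the tissue difference in 1 fit with a term for tissue. The exact two-sided permutation tests (scipy 1.17.1) covered 126 groupings in WAT and 252 in liver. edgeR 4.0.16 and DESeq2 1.42.0 on the recovered reads were alternatives. The fit was tested on simulated data. The 6 mice with both tissues are the same animals, and their deviations from the group means correlated between the tissues with r from -0.203 to 0.156 over 10403 genes (consensus correlation -0.115).

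The factors, lists and tests were chosen with earlier results of these data known. The text names all 10 factors, Fnip2, the 3 genes of each list with the lowest WAT p, and the 3 genes most like Pparg. Saa3, Abca1, Ddit4 and Angptl4 were named after their values were seen. The labels do not say whether libraries come from separate litters or days.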

Additional observations from a re-analysis of the deposited data

Results flagged for a closer look

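The effect of the genotype differed between WAT and liver for 3 of the 9 factors, by the test of the difference itself. Of all 10403 genes tested, 29.1% passed the same test, 17.7% with a negative difference, so 3 of 9 is close to the share among all genes. Cebpd and Klf15 kept the call in all 13 fits that left out 1 mouse, and Cebpb in 5 of them. The difference on the log2 scale was -2.58 for Cebpd, -2.19 for Klf15 and -1.22 for Cebpb, in each case with a negative value in WAT and a positive one in liver that did not pass on its own.

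Of 38 groups of 4 or 5 values, 1 held a sample far from the others by Dixon's criterion, which chance meets in about 1 of 20 groups. It was Cebpa in the Fnip2C/C liver of mouse 639, with 871 normalized counts against 1105 to 1166 in the other 4 livers.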

How the results depend on the processing

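Cebpd and Klf15 passed in WAT under each filter, scaling, tool and left-out library that kept them, and in the tissue difference, for which edgeR and DESeq2 were not run, under each filter, scaling and left-out mouse that kept them. A minimum mean of 50 normalized counts removed both, which left 2 factors called in WAT and 1 in the tissue difference. Leaving out each library gave 2 to 5 factors called in WAT, and leaving out each mouse gave 2 to 4 in the tissue difference. Cebpb missed the threshold in WAT once mouse numbers under 610 were separated from those over 630 by a term (adjusted p = 0.0517), Nr1h3 passed with that term, with quantile normalization and with scaling to the same total (0.0372, 0.0279 and 0.0271), and Rxra passed with quantile normalization (0.0402). With the mouse as a replicate block, which is not a fit of pairs since only 6 mice gave both tissues, the same 3 factors passed in the tissue difference. In that fit 2752 genes passed in place of 3032, and no call on a factor changed. Liver gave 0 genes in every setting, including a term for even against odd RNA label numbers. That term was added because the liver columns list even numbers first and odd ones after, which does not follow the genotype labels. Groups were taken from the labels, and the liver results and tissue differences rest on them. In WAT all Fnip2C/C numbers are even and all Fnip2T/T numbers odd, so number and genotype cannot be told apart there.

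Values near 0 changed sign. Ebf1 in WAT was 0.0097 with DESeq2, Stat5a in WAT 0.065 with quantile normalization, and Rxra in liver 0.019 with the even and odd term. Leaving out a library gave ranges that crossed 0 in WAT for Ebf1 (-0.26 to 0.23) and Stat5a (-0.061 to 0.068), in liver for Cebpa (-0.125 to 0.076), Ebf1 (-0.04 to 0.66), Pparg (-0.19 to 0.41), Rxra (-0.075 to 0.084) and Stat5a (-0.23 to 0.092), and in the tissue difference for Pparg (-0.026 to 0.50) and Stat5a (-0.10 to 0.22). The cause was not tested. Cebpd and Klf15 in WAT and Pparg and Ebf1 in liver had fewer than 10 reads in at least 1 library each.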
